A study of Mus musculus with 2 samples.

Results

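The interferon response was followed through 9 genes, taken by symbol from the 32285 genes of the deposited count matrices: Ifit1, Ifit3, Isg15, Stat2, Irf7, Irf9, Bst2, Ifitm3 and Ly6e. All 9 symbols matched 1 gene each. The measurements come from single-cell RNA sequencing of lung cells from Cdh16CreERT2;tdTomatoflox/flox mice, the genotype in the sample labels, whereas the series description gives the reporter as heterozygous. In these mice a tamoxifen-inducible Cre is driven from Cdh16, a cadherin gene, and recombined cells and their descendants keep a red reporter. Pregnant females received tamoxifen from embryonic day 12.5, either injected at 0.1 mg/kg or in the diet at 0.4 g/kg food, and the labels do not say which route belongs to which library. The 2 libraries used were 1 from the late embryonic stage E18.5 and 1 from postnatal day 10 (P10). They carry the same genotype and tamoxifen start and are listed under the same batch. The batch entry does not say whether the libraries were prepared together, and a difference in preparation could not be told apart from age. Whether they share a tamoxifen route is not known, and a difference in route could not be told apart from age. The tissue label of the P10 library also reads embryonic. Red cells were sorted within the population stained for CD326, the epithelial antigen Epcam. Each age has 1 library and hence no replicate check, the number of animals behind each is not given, and no difference has a p-value. Intervals are exact 95% intervals and cover counting error only.

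Interferons are secreted when cells sense viral or misplaced nucleic acid, and type I interferon binds the receptor pair Ifnar1 and Ifnar2. The receptor's kinases Jak1 and Tyk2 act on Stat2, which joins Irf9 in a complex that binds the interferon-stimulated response element in target promoters. Ifit1 binds viral RNA and restrains its translation, and Ifit3 is a relative of Ifit1. Isg15 is a ubiquitin-like modifier, and Bst2 (tetherin) holds budding virus at the cell surface. Ifitm3 blocks viral fusion in endosomes, Ly6e is a lipid-anchored surface protein known to restrict coronavirus entry, and Irf7 amplifies interferon production. In the lung, alveolar type 1 (AT1) cells form the thin gas exchange surface and alveolar type 2 (AT2) cells make surfactant.

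The promoters of 4 of the genes are shown because these genes had the highest ratios of AT1-like over AT2-like cells among the 9. Each window runs from 250 bases before to 50 bases after the RefSeq start of the gene (GRCm38.p6), written 5′ to 3′ on the gene's strand. Capitals mark a core of the interferon-stimulated response element: GAAA, any 2 bases and GAAA again, or TTTC, any 2 bases and TTTC again on the other strand. Where matches overlap they form 1 block of capitals.
Ifit3 (chr19:34583279-34583578, plus strand): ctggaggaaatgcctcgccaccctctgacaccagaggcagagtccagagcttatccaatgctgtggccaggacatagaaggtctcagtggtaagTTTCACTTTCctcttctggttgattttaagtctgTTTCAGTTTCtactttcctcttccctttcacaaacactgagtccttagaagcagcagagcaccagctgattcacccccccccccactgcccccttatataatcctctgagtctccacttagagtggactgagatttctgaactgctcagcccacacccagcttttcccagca
Ifit1 (chr19:34640639-34640938, plus strand): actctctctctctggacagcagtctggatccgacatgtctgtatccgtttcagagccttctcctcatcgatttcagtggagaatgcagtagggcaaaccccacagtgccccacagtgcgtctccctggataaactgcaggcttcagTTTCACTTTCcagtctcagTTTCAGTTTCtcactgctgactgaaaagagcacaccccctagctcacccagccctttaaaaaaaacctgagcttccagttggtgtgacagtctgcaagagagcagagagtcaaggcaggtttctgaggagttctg
Isg15 (chr4:156200769-156201068, minus strand): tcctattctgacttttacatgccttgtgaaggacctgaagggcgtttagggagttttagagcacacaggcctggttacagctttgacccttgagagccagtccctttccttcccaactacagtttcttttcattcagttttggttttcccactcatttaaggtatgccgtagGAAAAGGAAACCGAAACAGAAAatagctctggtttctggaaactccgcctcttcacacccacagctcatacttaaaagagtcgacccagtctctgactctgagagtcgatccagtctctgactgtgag
Bst2 (chr8:71537423-71537722, minus strand): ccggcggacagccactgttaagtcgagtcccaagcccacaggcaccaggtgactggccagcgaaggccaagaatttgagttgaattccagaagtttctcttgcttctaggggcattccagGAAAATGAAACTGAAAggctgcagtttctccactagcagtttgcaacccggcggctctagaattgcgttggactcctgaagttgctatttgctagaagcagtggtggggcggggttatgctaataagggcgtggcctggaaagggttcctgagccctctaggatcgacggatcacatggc
The Ifit3 matches begin 156 and 122 bases before the start, and those of Ifit1 begin 104 and 85 bases before it. In Isg15 the 3 matches overlap and begin 78, 72 and 66 bases before the start, and in Bst2 the 2 matches begin 130 and 124 bases before it. A window was found for 8 of the 9 genes, all but Ly6e, and 6 of the 8 held a match, Stat2 and Ifitm3 being the others. In Ifitm3 both matches lie after the start, within the last 50 bases of the window. The windows of Irf7 and Irf9 held none. Of all 32851 windows of this length, 1131 held the motif on either strand (3.44%). A match describes the letters in the window only.

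Barcodes were kept when they held 500 or more genes and 1000 or more UMIs, with mitochondrial genes making up no more than 20%, which left 12027 of 12739 barcodes in the E18.5 library and 14086 of 14503 in the P10 library. They held 137114399 and 170879577 UMIs (unique molecular identifiers, each standing for 1 captured RNA molecule), with medians of 8959 and 10250.5 per cell. The barcode lists shared 59 sequences, 52 of them kept in both libraries. Cells were clustered within each library without 149 interferon-related genes, and clusters were named "X-like" from marker lists. The E18.5 library held 3716 AT1-like cells, 2073 AT2-like cells and 1628 cells of a cluster with both AT1 and AT2 markers. The P10 library held 7099 AT2-like cells, 1778 transitional-like cells and 58 cells with both AT1 and AT2 markers, and no cluster with AT1 markers alone. The labels call all cells alveolar epithelial, but both libraries also held endothelial-like, mesenchymal-like, myeloid-like, neutrophil-like, lymphoid-like and mesothelial-like clusters, in spite of the CD326 gate. Unnamed clusters held 1171 cells in the earlier library and 2421 in the later. Non-epithelial clusters that carried high levels of alveolar RNA were left out of the class sums, which kept 369 of 1502 myeloid-like cells at E18.5 and 17 of 385 endothelial-like cells at P10. Levels are in CPM, the UMIs of a gene summed over the cells of a class per 1000000 UMIs of those cells.

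Over all kept cells, Ly6e stood apart between the ages. Its level was 65.6 CPM in the E18.5 library and 701 CPM in the P10 library, a ratio of 10.7 (10.5 to 10.9). Stat2, which relays the receptor's signal, was at 10.5 and 29.9 CPM, and Ifit1 at 3.08 and 8.06 CPM, ratios of 2.86 and 2.62. These 3 of the 9 genes were at least 2-fold higher at P10, beside 12.1% of the 9177 genes at 10 CPM or more in either library, and 0 were 2-fold lower, beside 13.5%. Ifit1 was below 10 CPM in both, and of the 8 genes at 10 CPM or more 2 were higher. Ifit3 (9.26 and 11.5 CPM), Isg15 (16.3 and 19.3 CPM), Irf7 (9.93 and 12.5 CPM), Irf9 (19.3 and 27.5 CPM) and Ifitm3 (165 and 219 CPM) had ratios from 1.18 to 1.42, and Bst2 was lower at P10 (67.0 and 47.8 CPM). The libraries differ in their make-up of cell classes, so levels within classes follow. In CPM alone, fewer positive cells and less RNA per cell cannot be told apart, and shares of cells at equal depth are given beside the main comparisons.

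**Figure D1:**
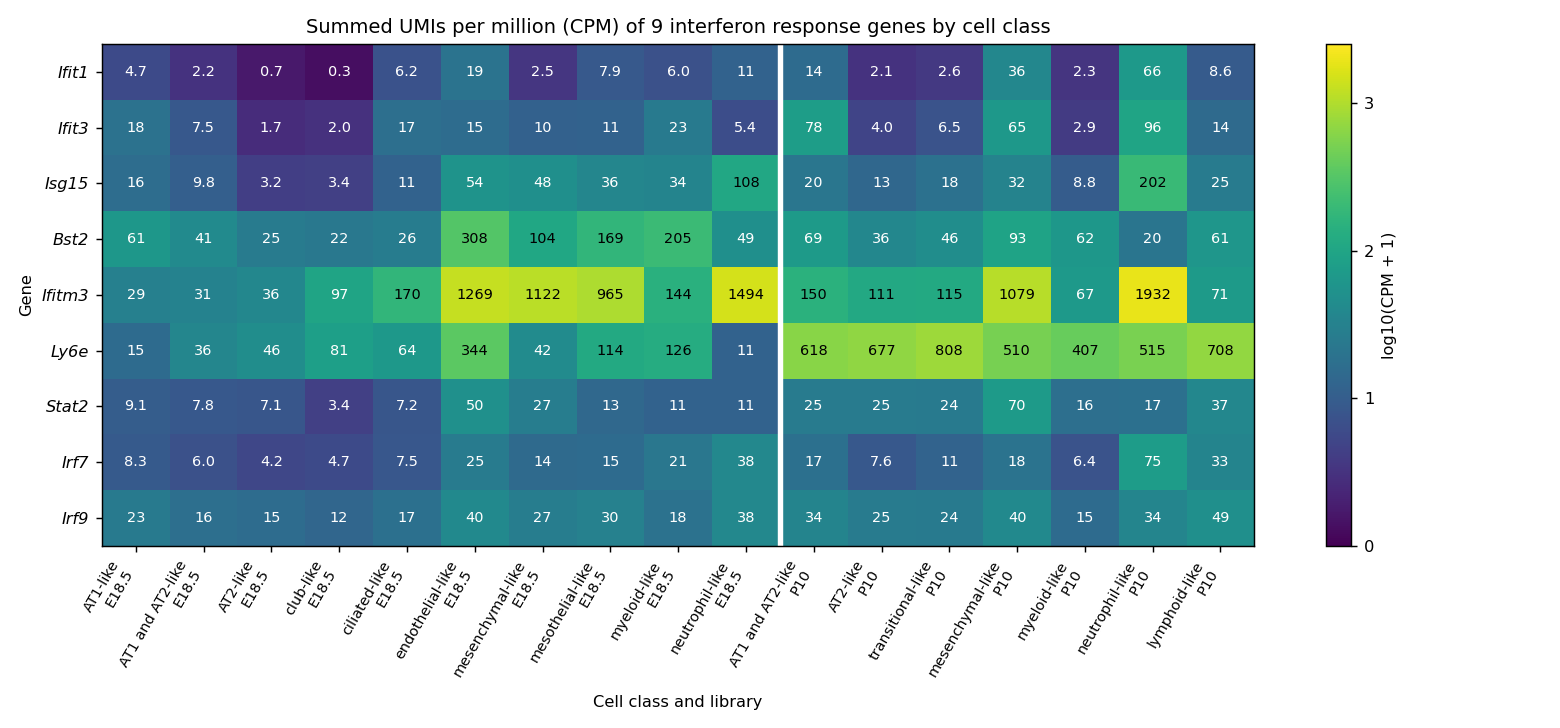
CPM of the 9 genes (rows) in each cell class of at least 50 cells (columns), with E18.5 left and P10 right of the white line. The number in each box is the CPM and the colour is log10(CPM + 1). Ifitm3 is at 965 CPM or more in the neutrophil-like, endothelial-like, mesenchymal-like and mesothelial-like columns, and Ly6e is at 407 CPM or more in all 7 classes at P10.

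Across the 10 classes at E18.5, the genes took different orders. Ifitm3 was highest in neutrophil-like (1494 CPM), endothelial-like (1269 CPM), mesenchymal-like (1122 CPM) and mesothelial-like cells (965 CPM). It was at 170 CPM in ciliated-like, 144 CPM in myeloid-like and 96.6 CPM in club-like cells. The alveolar classes were lowest, AT2-like at 36.3 CPM, the mixed AT1 and AT2 cluster at 30.9 CPM and AT1-like at 29.4 CPM, of which the last pair did not differ beyond counting error. Thinned to 3000 UMIs per cell, 89.4% (84.7 to 93.0) of endothelial-like cells had an Ifitm3 UMI, against 8.60% (7.61 to 9.66) of AT1-like cells. Unthinned, these shares were 97.2% and 15.4%, at median depths of 7083 and 5005 UMIs. Bst2 was highest in endothelial-like cells (308 CPM), then in myeloid-like (205 CPM), mesothelial-like (169 CPM) and mesenchymal-like cells (104 CPM). AT1-like cells were at 61.5 CPM, and ciliated-like, AT2-like and club-like cells were lowest, the AT2-like at 24.7 CPM.

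Ly6e was also highest in endothelial-like cells at E18.5 (344 CPM). Myeloid-like (126 CPM) and mesothelial-like cells (114 CPM) came next and did not differ from each other beyond counting error. AT1-like (14.6 CPM) and neutrophil-like cells (10.8 CPM, 2 UMIs) were lowest. Isg15 was highest in neutrophil-like cells (108 CPM). It was at 54.1 CPM in endothelial-like, 48.0 CPM in mesenchymal-like, 35.7 CPM in mesothelial-like and 33.7 CPM in myeloid-like cells, a run in which no neighbours differed beyond counting error. For the signalling genes the endothelial-like class led in Stat2 (50.1 CPM) and Irf9 (39.6 CPM) and the neutrophil-like class in Irf7 (37.8 CPM, 7 UMIs). Club-like cells were lowest in Stat2 (3.38 CPM) and Irf9 (12.2 CPM), and AT2-like cells in Irf7 (4.25 CPM). Of the 81 neighbouring pairs in the orders of the 9 genes, 49 did not differ beyond counting error.

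Ifit1 and Ifit3 levels rested on single cells in some classes. In ciliated-like cells, 1 cell held 37 of the 107 Ifit3 UMIs, and the level was 16.7 CPM with it and 10.9 CPM without it. Ifit1 in the same class was 6.23 CPM with its highest cell, which held 22 of 40 UMIs, and 2.82 CPM without it. In the mixed AT1 and AT2 cluster, 1 cell held 39 of 221 Ifit3 UMIs, and the level was 7.53 CPM with it and 6.21 CPM without it. Myeloid-like cells had the highest Ifit3 level of the 10 classes, 23.1 CPM from 131 UMIs, and 93 of these lay in a cluster of 104 cells led by C1qa and C1qc. Ifit3 was at 94.4 CPM in that cluster and 8.23 CPM in the 215 cells led by Car4. The C1qa cluster also had 610 CPM of Bst2 and 65.9 CPM of Irf7, against 125 and 12.2 CPM in the Car4 cluster.

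AT1-like and AT2-like cells at E18.5 differed in 5 of the 9 genes by 2-fold or more. Ifit3 was at 18.1 CPM in AT1-like and 1.73 CPM in AT2-like cells, 10.5-fold higher (7.41 to 15.3). Isg15 was at 15.5 and 3.21 CPM, 4.84-fold higher (3.70 to 6.41), and Bst2 at 61.5 and 24.7 CPM, 2.49-fold higher (2.25 to 2.77). Ifit1 was at 4.72 and 0.692 CPM, from 106 and 14 UMIs, 6.83-fold higher (3.89 to 12.9) and below 10 CPM in both. Ly6e ran the other way, at 14.6 CPM in AT1-like and 45.6 CPM in AT2-like cells, a ratio of 0.320 (0.281 to 0.363), 3.13-fold lower in AT1-like cells. The count of 4 of 9 genes higher in AT1-like cells stands beside 16.7% of the 8421 genes at 10 CPM or more in either class, and the count of 1 lower beside 9.22%. Of the 9 genes, 6 reached 10 CPM in either class, and 3 of these were higher and 1 lower.

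The genes that relay the interferon signal differed less. Irf7 was at 8.28 CPM in AT1-like and 4.25 CPM in AT2-like cells, from 186 and 86 UMIs, a ratio of 1.95. It passed 2-fold, at 1.02 on the log2 scale, once alveolar cells with at least 2 UMIs of 5 leukocyte or endothelial genes were left out. Irf9 had a ratio of 1.54 (1.33 to 1.78) and Stat2 of 1.28 (1.03 to 1.60). Ifitm3 had a ratio of 0.809 (0.728 to 0.900). On the log2 scale the median of the 9 genes was 0.96, beside 0.36 for all 8421 genes.

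**Figure D2:**
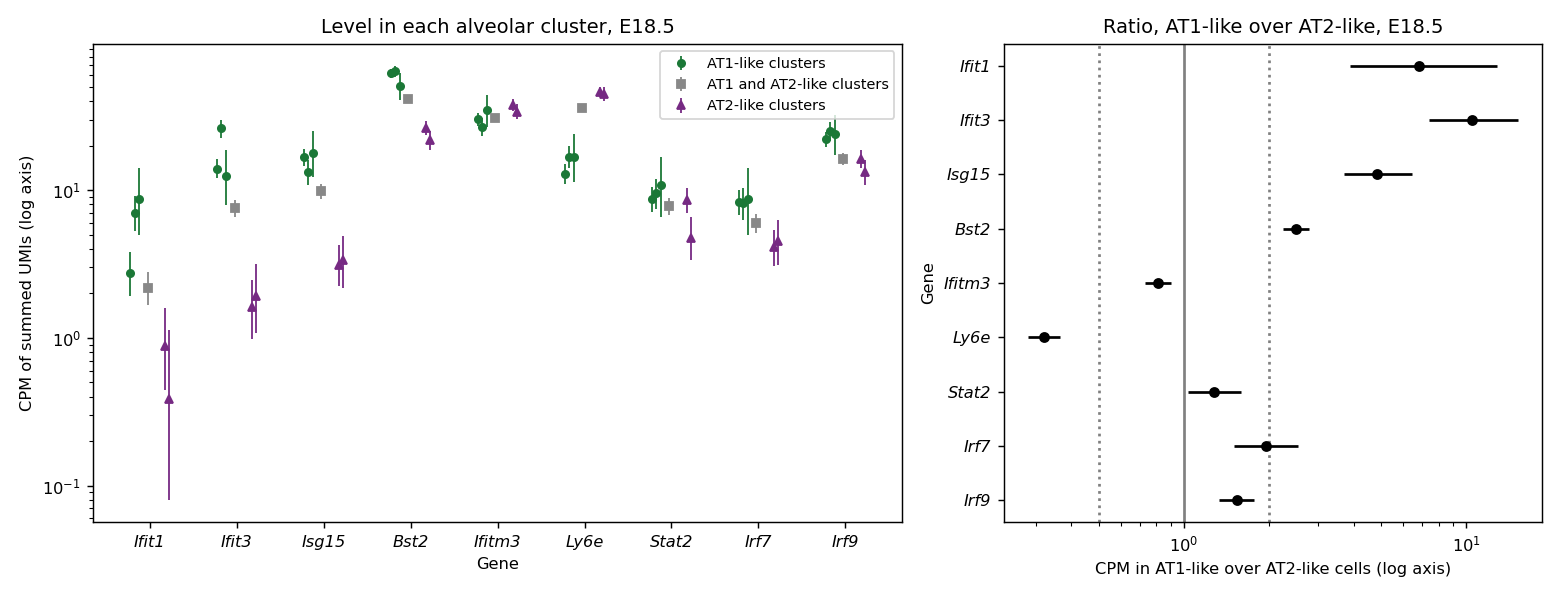
Left, CPM of each gene (log axis) in the 3 AT1-like clusters, the mixed AT1 and AT2 cluster and the 2 AT2-like clusters at E18.5, with exact 95% Poisson intervals. Right, the ratio of AT1-like over AT2-like cells (log axis) with its exact 95% interval; dotted lines mark 2-fold. In Ifit3, Isg15 and Bst2 all 3 AT1-like clusters lie above both AT2-like clusters, and in Ly6e all lie below. The share of all measured genes with such a split was not counted.

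The same order held cluster by cluster. Ifit3 was at 14.0, 26.1 and 12.5 CPM in the 3 AT1-like clusters and at 1.61 and 1.93 CPM in the 2 AT2-like clusters. Isg15 was at 16.7, 13.2 and 17.9 CPM against 3.13 and 3.34 CPM. Ly6e was at 12.9, 16.7 and 16.8 CPM against 46.1 and 44.7 CPM. The share of all measured genes whose AT1-like and AT2-like clusters split in this way was not counted, so the order is a description only. The mixed cluster lay between the classes for Ifit3 (7.53 CPM), Isg15 (9.81 CPM), Bst2 (41.2 CPM) and Ly6e (35.9 CPM). The median cell of this cluster held 15902.5 UMIs, whereas the AT2-like median was 8985 and the AT1-like median 5005. No doublet caller was run, so the part of doublets in the levels of the mixed cluster was not tested. Clusters are cells of 1 library and not replicates.

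Detection at equal depth gave the same direction. The AT1-like cells were shallower, with a median of 5005 UMIs against 8985. Thinned to 3000 UMIs, 2978 AT1-like and 2025 AT2-like cells remained. An Ifit3 UMI was found in 4.87% (4.12 to 5.70) of the former and 0.494% (0.237 to 0.906) of the latter, and unthinned in 8.56% and 1.69%. For Isg15 the thinned shares were 4.40% and 1.43%, for Bst2 17.3% and 6.86%, and for Ly6e 3.83% and 11.0%.

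Markers of other cell types were measured in the same cells, and where they differed their part in the ratios was not tested. The mesothelial list summed to 945 CPM in AT1-like and 72.9 CPM in AT2-like cells, 940 and 70.6 CPM of it Msln, and the transitional list to 7354 and 3588 CPM. The endothelial list summed to 248 CPM in AT1-like and 85.7 CPM in AT2-like cells, of which Esam, a junction protein, made up 208 and 28.4 CPM, while Cldn5 was at 4.32 and 4.64 CPM and Cdh5 at 1.96 and 2.67 CPM. None of its 11 markers was at 0 in either class. The myeloid list summed to 647 and 9231 CPM, 498 and 9045 CPM of it Lyz2, which AT2 cells also express. Tyrobp was at 22.8 and 21.0 CPM and Ptprc at 3.96 and 4.40 CPM. Without the alveolar cells that held leukocyte or endothelial UMIs, the log2 ratio was 3.50 for Ifit3, 2.26 for Isg15, 1.34 for Bst2 and -1.62 for Ly6e, against 3.39, 2.27, 1.32 and -1.65 with them.

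Other genes of the pathway were measured from lists. Among type I interferon effectors outside the 9 genes, 16 of 53 found in the files reached 10 CPM in either class, and 9 of these were at least 2-fold higher in AT1-like cells and 0 lower, beside 16.7% and 9.22% of all genes measured. Their median log2 ratio was 1.44, beside 0.36. Ifit2, an RNA-binding relative of Ifit3, was 11.1-fold higher (29.5 and 2.67 CPM), Sp100, a nuclear body protein, 6.13-fold (22.7 and 3.71 CPM), and Samd9l, a translation inhibitor, 4.07-fold (67.0 and 16.5 CPM). Ifi27, the most abundant of the list, was at 164 and 110 CPM. Ifit2 and Sp100, and Ifi27l2a among the values between the ages, were named after their values were seen.

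Receptors, sensors and regulators reached 10 CPM in fewer genes, and their counts are to be read against the same 16.7% higher and 9.22% lower of all genes. Among receptors and kinases 2 of 8 were higher and 0 lower: Ifnlr1, the lambda interferon receptor chain (17.0 and 4.94 CPM), and Ifngr2, a chain of the interferon gamma receptor (80.9 and 31.4 CPM). The type I receptor chains went in opposite directions within 2-fold, Ifnar1 at 25.7 and 16.0 CPM and Ifnar2 at 37.4 and 65.0 CPM. Of 3 sensors measured, 2 were higher, the RNA helicases Ifih1 (17.6 and 6.03 CPM) and Ddx58 (24.0 and 8.89 CPM). Of 4 other regulators, 1 was higher, Usp18, the deconjugase of Isg15 and a brake on the receptor (25.9 and 12.2 CPM). None of the 18 interferon gamma induced GTPases and chemokines reached 10 CPM in either class.

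**Figure D3:**
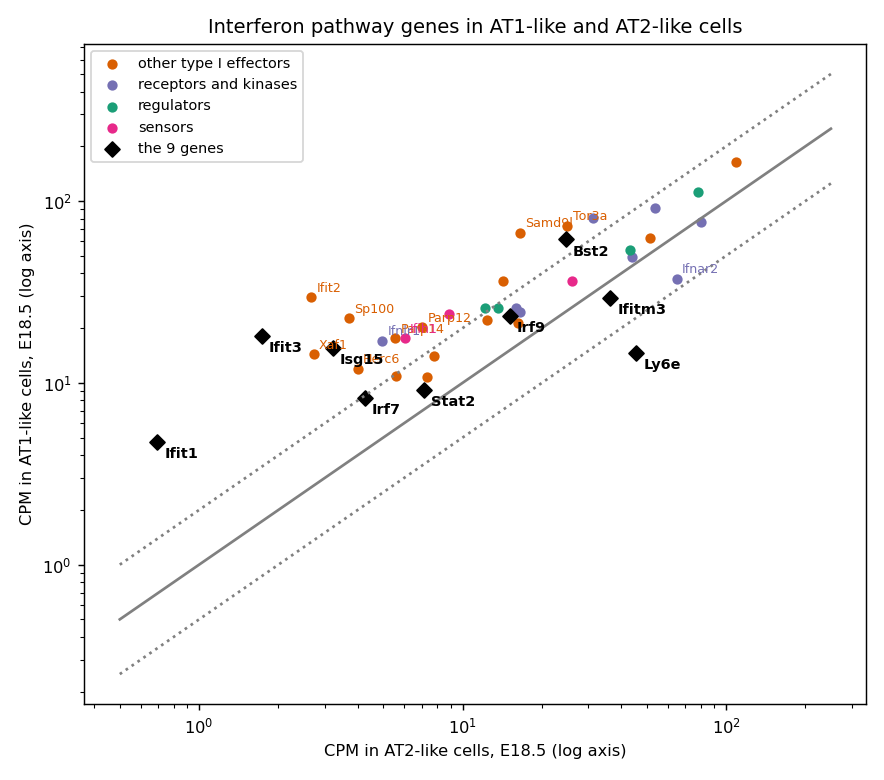
CPM in AT1-like cells against CPM in AT2-like cells at E18.5 (both log axes) for the 9 genes (black diamonds) and for effectors, receptors and kinases, regulators and sensors at 10 CPM or more in either class. The solid line marks equal levels and the dotted lines 2-fold. Ifit2 (ratio 11.1) and Ifit3 (ratio 10.5) lie far above the upper dotted line, and Ly6e (ratio 0.320) lies below the lower one.

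The interferons themselves had few UMIs. Of 21 ligand genes, 8 had a UMI at E18.5, with 85 UMIs in all, and 7 had one at P10, with 128 UMIs. Ifnb1, a type I interferon made early in infection, had 42 and 43 UMIs, and Ifng, the product of activated lymphocytes, 22 and 44. No ligand gene reached 1 CPM in either library. For a ligand with 0 UMIs, a limit of 3 counts allows a level of up to 0.0219 CPM in the E18.5 library and 0.0176 in the P10 library.

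AT2-like cells at P10 were compared with AT2-like cells at E18.5. Ly6e was at 677 CPM at P10 and 45.6 CPM at E18.5, 14.9-fold higher (13.9 to 15.9). Isg15 was at 12.8 and 3.21 CPM (3.98-fold, 3.09 to 5.19), Stat2 at 25.1 and 7.12 CPM (3.53-fold, 2.98 to 4.21) and Ifitm3 at 111 and 36.3 CPM (3.07-fold, 2.84 to 3.31). Ifit1 and Ifit3 stayed below 10 CPM, at 2.13 and 3.99 CPM at P10, with ratios of 3.09 (1.79 to 5.77) and 2.31 (1.62 to 3.37). Of the 316 Ifit3 UMIs at P10, 45.6% lay in the 71 cells with most. Unthinned, an Ifit3 UMI was found in 243 of 7099 AT2-like cells at P10 and in 35 of 2073 at E18.5. In all, 6 of the 9 genes were at least 2-fold higher at P10 and 0 lower, beside 15.9% and 9.22% of the 8358 genes at 10 CPM or more in either sum. Of the 6 genes that reached 10 CPM, 4 were higher. Irf7, Irf9 and Bst2 were higher by less than 2-fold (ratios 1.78, 1.64 and 1.46).

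Ly6e was found in most AT2-like cells at P10. Thinned to 3000 UMIs, 80.8% (79.9 to 81.7) of them had a Ly6e UMI, against 11.0% (9.63 to 12.4) at E18.5, and the unthinned shares were 97.3% and 30.5%. For Isg15 the thinned shares were 3.20% and 1.43%, and for Stat2 7.07% and 2.12%. The 4 AT2-like clusters at P10 had Ly6e at 536, 764, 603 and 968 CPM. The last is a cluster of 714 cells led by the acute-phase genes Saa3 and Orm1. It was also the highest of the 4 in Ifit3 (7.72 CPM), Isg15 (24.7 CPM), Irf7 (11.9 CPM) and Ifitm3 (208 CPM), where the others had at most 4.39, 14.7, 7.75 and 113 CPM.

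Several measures moved with this comparison, and their part in it was not tested. The neutrophil marker list summed to 33.2 CPM in E18.5 and 111 CPM in P10 AT2-like cells, the lymphoid list to 20.7 and 51.3 CPM and the endothelial list to 85.7 and 144 CPM. The dissociation response list, immediate early and heat shock genes that respond to tissue digestion, summed to 6640 and 11704 CPM, and the housekeeping list to 14587 and 9226 CPM. At P10 no marker of the neutrophil, lymphoid and endothelial lists was at 0, and at E18.5 1 of 10 neutrophil and 3 of 12 lymphoid markers were. Without the alveolar cells that held leukocyte or endothelial UMIs, the log2 ratio was 3.92 for Ly6e, 1.80 for Stat2, 1.65 for Ifitm3 and 1.87 for Isg15, against 3.89, 1.82, 1.62 and 1.99 with them. Gene length moved with age as well. Over all genes, the 20% with the shortest gene bodies (8.86 kb at most) had a median log2 ratio of -0.39, and the 20% with the longest (84.6 kb or more) one of 0.82. Of the 9 genes 7 belong to the shortest 20%, Ifit1 spans 9139 bases and Stat2 22291 bases.

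Pathway lists between the 2 AT2-like groups were mixed. Effectors outside the 9 genes had 7 of 17 measured genes higher at P10 and 1 lower, beside 15.9% and 9.22% of all genes measured, with a median log2 ratio of 0.95 beside 0.23 for all genes. Ifi27l2a, a relative of Ifi27, was at 60.7 and 9.83 CPM at P10 and E18.5, Samd9l at 17.9 and 16.5 CPM, and Tor3a was the lower gene with a ratio of 0.462. All 3 measured sensors were higher, Ifih1 3.35-fold, Ddx58 2.45-fold and Tbk1, the kinase that activates Irf3, 2.07-fold. Of 7 receptors and kinases 1 was higher, the kinase Jak2 (2.47-fold), and 0 of 4 other regulators passed 2-fold, with Usp18 at 8.63 and 12.2 CPM. Ly6e lies in a gene family of which the 4 other measured members were higher as well. Ly6a, Ly6c1, Ly6c2 and Ly6i were at 24.9, 55.1, 30.2 and 68.5 CPM at P10 and 1.73, 9.14, 9.88 and 1.33 CPM at E18.5. Ly6c1 and Ly6c2 are near-identical copies, so the split between them is uncertain.

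Within P10, the transitional-like cells were close to AT2-like cells. Of the 9 genes 0 were 2-fold higher and 0 lower there, beside 1.97% and 0.36% of the 8056 genes at 10 CPM or more. Ifit3 had a ratio of 1.64 (1.34 to 1.99), Irf7 of 1.49 (1.28 to 1.73) and Isg15 of 1.38 (1.22 to 1.55). For Ifit3, 1 cell held 25 of the 149 UMIs, and the level was 6.53 CPM with it and 5.44 CPM without it. The dissociation response list summed to 20742 CPM in transitional-like and 11704 CPM in AT2-like cells, and its part in these ratios was not tested.

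The 58 cells with both AT1 and AT2 markers at P10, led by Rtkn2 and Hopx, had Ifit3 at 77.8 CPM against 3.99 CPM in AT2-like cells, 19.5-fold higher (14.7 to 25.5). Ifit1 was 6.73-fold higher (14.4 and 2.13 CPM, 12 UMIs in the small cluster) and Irf7 2.22-fold. These 3 of 9 genes stand beside 8.43% of the 8596 genes measured, and 0 were lower beside 1.83%. Ly6e was at 618 and 677 CPM and Stat2 at 25.1 CPM in both. The cell with most Ifit3 UMIs held 8 of the 65 UMIs. The endothelial list summed to 237 CPM in these cells and 144 CPM in AT2-like cells, and its markers differed in direction. Esam was at 88.6 and 45.9 CPM, Ramp2 at 37.1 and 14.2 CPM and Cldn5 at 16.8 and 6.72 CPM. Cdh5, a junction gene, was at 20.3 CPM (17 UMIs) and 3.99 CPM. Pecam1 was at 49.1 and 53.3 CPM, Egfl7 at 9.58 and 9.43 CPM and Plvap at 2.39 and 2.40 CPM. The myeloid list was lower in the small cluster, at 10482 against 17582 CPM, with Ptprc at 4.79 and 7.77 CPM, whereas Csf1r, a macrophage receptor on it, was at 29.9 and 6.32 CPM. The part of these markers was not tested beyond the next values. After cells with leukocyte or endothelial UMIs were left out, 43 cells remained. Ifit3 was then at 87.6 CPM (ratio 23.8, 16.5 to 33.4), Ifit1 at 6.57 CPM from 3 UMIs (ratio 3.11, 0.632 to 9.30) and Irf7 at a ratio of 1.54, now under 2-fold, while Bst2 passed it at 2.04.

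Non-epithelial classes were compared between the ages where both had at least 50 cells. In mesenchymal-like cells 4 of 9 genes were higher at P10, beside 17.4% of all measured genes, and 0 lower, beside 9.22%. Ifit1 was at 36.1 CPM at P10 and 2.49 CPM at E18.5 (14.5-fold, 8.48 to 26.6), Ifit3 at 64.8 and 10.3 CPM (6.29-fold, 4.74 to 8.45), Ly6e at 510 and 42.1 CPM (12.1-fold) and Stat2 at 69.8 and 26.6 CPM (2.63-fold). Isg15 was at 31.9 and 48.0 CPM and Ifitm3 at 1079 and 1122 CPM, both within 2-fold. The class was made of different clusters at each age. At E18.5 400 of the 702 cells were led by Mfap4 and Col1a1, 227 by Acta2 and 75 by Nrxn3. At P10 the 343 cells were 182 led by Aspn and 161 led by Gucy1a1 and Acta2, and the 148 cells led by Mfap4 were left out for their alveolar RNA.

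Marker lists of other cell types moved with the mesenchymal-like difference, and their part in it was not tested beyond the values below. From E18.5 to P10 the AT2 list went from 36567 to 67794 CPM and the myeloid list from 2502 to 6373 CPM. The dissociation response list went from 12502 to 17125 CPM and the neutrophil list from 96.8 to 216 CPM. Other lists fell, such as the AT1 list from 7727 to 1518 CPM and the housekeeping list from 17525 to 10156 CPM. The endothelial list summed to 1458 CPM at P10, against 202 CPM at E18.5. Pecam1 was at 193 CPM at P10 and 22.6 CPM at E18.5, and none of the 11 markers was at 0 at either age. The endothelial sum was 2613 CPM in the P10 cluster led by Gucy1a1. That cluster had Ifit1 at 49.6 CPM, Ifit3 at 72.8 CPM, Stat2 at 78.9 CPM and Ly6e at 658 CPM. In the cluster led by Aspn the endothelial sum was 203 CPM, with Pecam1 at 66.6 CPM and a dissociation response sum of 20512 CPM. The Aspn cluster had 21.5, 56.1 and 349 CPM of Ifit1, Ifit3 and Ly6e. The highest E18.5 mesenchymal-like cluster had 2.82, 11.3 and 47.3 CPM. Without the mesenchymal-like cells that held at least 2 UMIs of Pecam1, Cdh5 and Cldn5, 274 cells at P10 and 663 at E18.5 remained. The ratio was then 7.82 (4.16 to 15.8) for Ifit1, 4.97 for Ifit3, 7.96 for Ly6e and 2.09 for Stat2, still past 2-fold, and Isg15 was 2-fold lower at P10 (ratio 0.464). With every cell weighted equally, Stat2 was under 2-fold.

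In neutrophil-like cells Ifit1, Ifit3 and Ly6e were higher at P10 and Bst2 lower, 3 and 1 of 9 genes beside 25.6% and 19.3%. The E18.5 values of the 3 higher genes came from 2, 1 and 2 UMIs in 68 cells, which gives ratios of 6.11 (1.60 to 51.8), 17.8 (3.10 to 714) and 47.8 (13.1 to 396). For Bst2, with 15 and 9 UMIs, the ratio was 0.407 (0.167 to 1.06), an interval that includes 1. The Bst2 difference was under 2-fold with every cell weighted equally and without the deepest 10% of cells. At the coarser clustering (Leiden resolution 0.5) the E18.5 neutrophil-like cells fell in a cluster that carried alveolar RNA, so no neutrophil-like comparison could be made.

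Myeloid-like cells went the other way in most of the genes. Here 6 of 9 were lower at P10, beside 13.4% of all genes, and 1 was higher, beside 16.1%. Ifit3 was at 2.93 CPM at P10 and 23.1 CPM at E18.5 (7.89-fold lower). Isg15 was at 8.78 and 33.7 CPM, Irf7 at 6.44 and 21.3 CPM, Bst2 at 62.1 and 205 CPM and Ifitm3 at 66.7 and 144 CPM. Ifit1 had 4 and 34 UMIs and a ratio of 0.391 (0.101 to 1.10), an interval that includes 1. Ly6e was the higher gene, at 407 and 126 CPM. Of the 8 genes at 10 CPM or more 5 were lower, and at the finer clustering (resolution 2) Ifit1, Irf7 and Ifitm3 were no longer 2-fold lower. The classes are made of different clusters: 148 cells led by Chil3 and Ccl6 at P10, and the Car4, C1qa and dividing clusters at E18.5. The Car4 cluster alone had 8.23 CPM of Ifit3, 23.2 CPM of Isg15 and 125 CPM of Bst2, above the P10 levels too. A P10 cluster of 119 cells led by C1qa, which carried alveolar RNA, had 131 CPM of Bst2 and 31.5 CPM of Irf7, against 610 and 65.9 CPM in the C1qa cluster at E18.5.

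**Figure D4:**
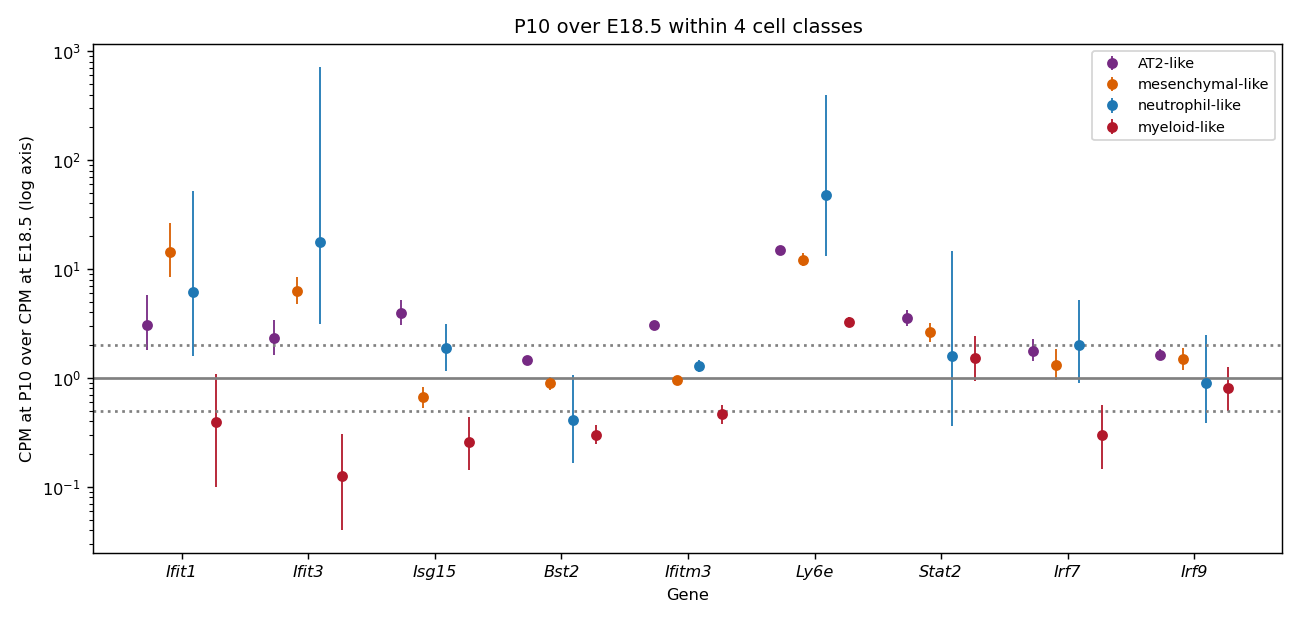
CPM at P10 over CPM at E18.5 (log axis) for the 9 genes in AT2-like, mesenchymal-like, neutrophil-like and myeloid-like cells, with exact 95% intervals; the solid line marks equal levels and dotted lines 2-fold. Ly6e has a ratio of 3.23 or more in all 4 classes, and Ifit3 is above 2-fold in 3 classes and at 0.127 in myeloid-like cells.

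Ly6e was high in all 7 classes at P10, from 407 CPM in myeloid-like to 808 CPM in transitional-like cells. Free RNA in the droplets gives every class some UMIs of abundant genes, and Sftpc, the surfactant gene of AT2 cells, was at 20665 CPM in lymphoid-like and 152165 CPM in AT2-like cells at P10. Per 1000 Sftpc UMIs there were 4.45 Ly6e UMIs in AT2-like, 6.23 in mixed AT1 and AT2 and 6.28 in transitional-like cells. There were 10.1 in mesenchymal-like, 13.5 in myeloid-like, 19.7 in neutrophil-like and 34.3 in lymphoid-like cells. The part of free RNA in the Ly6e levels was not tested. In AT2-like cells at E18.5 there were 0.310 Ly6e UMIs per 1000 of Sftpc.

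Among the 7 classes kept at P10, neutrophil-like cells were highest in Ifit1 (65.9 CPM), Ifit3 (96.2 CPM), Isg15 (202 CPM), Irf7 (75.1 CPM) and Ifitm3 (1932 CPM). For Ifit3 they did not differ from the mixed AT1 and AT2 cluster beyond counting error. Mesenchymal-like cells led these classes in Stat2 (69.8 CPM) and Bst2 (93.3 CPM) and lymphoid-like cells in Irf9 (48.6 CPM). Without the cells that held endothelial UMIs, the mesenchymal-like level was 57.2 CPM for Stat2 and 56.8 CPM for Bst2, the latter below the 69.4 CPM of the mixed AT1 and AT2 cluster. Clusters outside these classes, such as the endothelial-like cells that carried alveolar RNA, held higher levels of some of the genes. AT2-like and myeloid-like cells were the 2 lowest of the 7 for Ifit1, Ifit3, Isg15 and Irf7. Of 54 neighbouring pairs in the orders at P10, 28 did not differ beyond counting error.

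Most alveolar cells held few of the 9 genes at once. At 3000 UMIs per cell, 59.1% of AT1-like cells at E18.5 had a UMI of none of them, 31.8% of 1, 7.52% of 2, 1.21% of 3 and 0.302% of 4 or more, with 8 genes in the highest cell. Of AT2-like cells at E18.5, 68.0% had none and 0 had more than 3. At P10 11.5% of AT2-like cells had none, with Ly6e in 80.8%. Of the inducible genes Ifit1, Ifit3, Isg15 and Irf7, at least 2 were found together in 30 of 2978 AT1-like cells (1.01%), 1 of 2025 AT2-like cells at E18.5 (0.0494%), 31 of 6960 AT2-like cells at P10 (0.445%) and 14 of 1766 transitional-like cells (0.793%). The share was 6.19% of mesenchymal-like cells at P10 and 4.48% of myeloid-like cells at E18.5. At least 1 of these 4 genes was found in 11.4% of AT1-like and 2.86% of AT2-like cells at E18.5. At P10 it was 6.02% of AT2-like and 7.53% of transitional-like cells. More frequent detection of single genes alone raises the share with 2 or more. The share under independent detection is not given, so the gaps between classes do not show induction within the same cells.

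AT1-like cells with Ifit3 held some other genes of the response more often. Of 145 AT1-like cells with an Ifit3 UMI at 3000 UMIs, 10.3% (5.91 to 16.5) had Isg15, against 4.09% (up to 4.89%) of the 2833 without. Ifit1 was in 4.14% (1.53 to 8.79) against 0.812% (0.515 to 1.22), and Usp18 in 15.2% (9.76 to 22.1) against 6.71% (5.81 to 7.69). Bst2 was in 23.4% (16.8 to 31.2) against 16.9% (15.6 to 18.4), and the intervals overlapped for Bst2, Irf7, Irf9, Stat2, Ifitm3 and Ly6e. Ptprc was in 2.07% (0.429 to 5.93) against 1.09%, and Pecam1 in 5.52% against 5.08%. The share with Isg15 moved with the depth of thinning, from 5.26% at 2000 UMIs to 15.4% at 5000 UMIs.

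**Figure D5:**
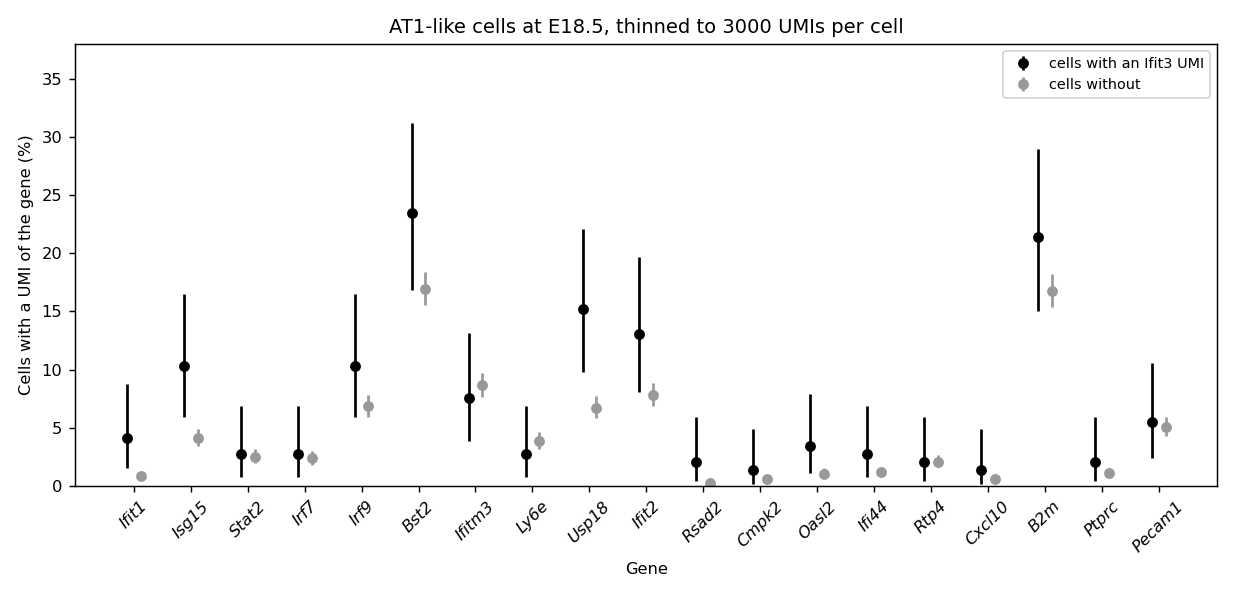
Percent of AT1-like cells at E18.5 with a UMI of each gene, among the 145 cells with an Ifit3 UMI (black) and the 2833 without (grey), at 3000 UMIs per cell, with exact 95% Clopper-Pearson intervals. For Ifit1, Isg15 and Usp18 the black point is higher with intervals that do not overlap, and for Pecam1 it is close to the grey.

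In P10 AT2-like cells 67 of 6960 held Ifit3, and 17.9% (9.61 to 29.2) of these had Isg15, against 3.06% (2.67 to 3.50) of the others. Stat2 was in 16.4% (8.49 to 27.5) against 6.98%, and Usp18 in 11.9% (5.30 to 22.2) against 2.15%. Ly6e was in 83.6% against 80.8%. Cells are not replicates, and these intervals describe the 2 libraries.

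Correlations of the 36 gene pairs across cells were low in alveolar cells, and in such sparse counts they are given as a description. In AT1-like cells at E18.5 Pearson's r ran from -0.02 to 0.25 with a median of 0.02, highest for Ifit1 with Ifit3, and 3 pairs were over 0.1. In AT2-like cells at E18.5 r ran from -0.02 to 0.05. Myeloid-like cells at E18.5 had a median of 0.17 and 23 pairs over 0.1, and mesenchymal-like cells at P10 a median of 0.17 and 25 pairs. The highest in the latter was Ifit1 with Ifit3 at 0.53, found together in 10 of 323 cells. Both of these classes pool clusters with different levels of the genes, as given above. The part of such differences between clusters in r was not tested.

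The UMIs of Ifit1 were concentrated in few AT1-like cells. Of 106 UMIs, the 37 cells with most (1% of the class) held 76.4%, and 1 cell held 16, so that the level was 4.72 CPM with it and 4.01 CPM without it. Ifit3 was spread more widely, with 407 UMIs in 318 cells and 26.5% in the highest 37. Irf7, with 186 UMIs in 176 cells, had at most 3 in a cell. In AT2-like cells at E18.5 the 35 Ifit3 UMIs lay in as many cells. In P10 AT2-like cells 66.3% of the 169 Ifit1 UMIs lay in the 71 cells with most, and 4.46% of the 53609 Ly6e UMIs.

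Over the 17 class profiles of the 2 libraries, likeness was measured by Pearson's r of log2(CPM + 10), as a description of profiles that share libraries. Among the 9 genes, Isg15 and Irf7 were most alike (r = 0.92), followed by Ifit1 with Ifit3 (0.85) and Isg15 with Ifitm3 (0.83). Ly6e had r from 0.08 with Isg15 to 0.66 with Stat2. Outside the interferon lists, the genes most like each in profile were Cd46 for Ifit1 (0.91), Rprd1b for Ifit3 (0.84), Zyx for Isg15 (0.92), St6galnac3 for Stat2 (0.92), Neurl3 for Irf7 (0.95), Pitpnb for Irf9 (0.91), Olfm1 for Bst2 (0.86), Nhsl2 for Ifitm3 (0.89) and Scgb3a1 for Ly6e (0.89). Across thinned AT2-like cells, the highest r of a gene outside the 9 with the number of the 9 found was 0.0877 at E18.5 (Leng8) and 0.148 at P10 (Lcn2), and such weak values in sparse counts are no finding.

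Some of the genes have neighbours that limit what the counts can say. Ifit3 has the near-identical copy Ifit3b, whose reads may be split or lost, so its level is uncertain. Irf7 overlaps Phrf1 at its 3′ end on the opposite strand, and Irf9 overlaps the 3′ end of Rnf31 on the same strand. In GRCm38 the genes lie on chromosomes 19 (Ifit1 and Ifit3), 4 (Isg15), 10 (Stat2), 7 (Irf7 and Ifitm3), 14 (Irf9), 8 (Bst2) and 15 (Ly6e).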

How the data were processed

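UMI counts of 2 libraries of sorted mouse lung cells were analysed; the E16.5 samples were not analysed here. The authors deposited whole-number UMI counts per gene and cell barcode, which the file headers place with Cell Ranger 7.0.1; the genome build mm10 and Seurat 4.0.0 are named in the submitters' processing notes. The treatment of intronic reads is not stated in the sources used here. The 9 genes and all lists were chosen with earlier results of these data known. No doublet caller was run, so doublets remain. Per library, counts of the kept cells were scaled to 10000, log-transformed and clustered with scanpy 1.11.5 (2000 variable genes without the 149 interferon-related genes, 30 components, 15 neighbours, Leiden resolution 1). The rules that named clusters from marker lists were set with the clusters in view. A marker was raised at 25% detection and 3-fold over the 10th percentile of clusters. Names of non-alveolar types took 3 or more raised markers and 30% of the list. AT1 and AT2 names rested on the relative level of that list, from 0.5 up, or 0.25 for the second list of a mixed cluster. Transitional-like clusters had 2 or more transitional markers among their 10 leading genes. Some clusters past the alveolar level stayed unnamed, such as the P10 cluster of 2042 cells (AT2 level 0.753). UMIs were summed per class and given as CPM with exact Poisson intervals; ratios have exact conditional binomial intervals, tested on simulated data, and shares Clopper-Pearson intervals. Genes 2-fold apart are counted: for the 9 genes whatever their level, for lists and all genes among those at 10 CPM or more in either sum. Detection and co-expression used cells thinned to 3000 UMIs, without shallower cells. One other gene of the lists is not reported here. Named were the 9 genes, receptors, ligands and regulators, the 4 most abundant genes of each other list, and the genes most alike in profile. Alternatives were another cell filter, resolutions 0.5 and 2, equal weight per cell, leaving out cells with other types' UMIs or the deepest 10%, and other totals; those of the non-epithelial comparison were chosen after seeing the data.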

Additional observations from a re-analysis of the deposited data

Results flagged for a closer look

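Some genes moved in opposite directions between the ages in different cell classes. Ifit3 had a log2 ratio of P10 over E18.5 of 1.21 in AT2-like, 2.65 in mesenchymal-like and 4.16 in neutrophil-like cells (1 UMI at E18.5), and of -2.98 in myeloid-like cells. Isg15 had 1.99 in AT2-like and -1.94 in myeloid-like cells, and Ifitm3 1.62 and -1.11. The difference between classes was not tested, since each class has 1 library per age. The myeloid-like class was made of the Car4, C1qa and dividing clusters at E18.5 and of the Chil3 cluster at P10. The mesenchymal-like class also differed in its clusters and in its endothelial markers, and without cells that held endothelial UMIs the Ifit3 ratio was 4.97. At Leiden resolution 2 Ifitm3 was not 2-fold lower in myeloid-like cells.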

How the results depend on the processing

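The counts of genes past 2-fold between AT1-like and AT2-like cells were 4 or 5 higher and 1 lower under the 8 alternatives, those between AT2-like cells of the 2 ages stayed at 6 and 0 under 8, and those between libraries at 3 and 0 under 4. Among log2 ratios of single genes, 68 of 72 values of the AT1 and AT2 comparison, 71 of 72 of the AT2 comparison between ages and 24 of 36 between libraries moved by no more than the counting error, and no called ratio changed sign. At Leiden resolution 0.5 the non-epithelial classes gave 5 genes higher at P10 in place of 8, because no E18.5 neutrophil-like cells were left in the sums. Thinned to 2000 UMIs, 5.26% of AT1-like cells with Ifit3 had Isg15, in place of 10.3%. Counting only effectors at 50 CPM or more left 2 of 4 higher in AT1-like cells and 0 lower. Counting all with a UMI gave 23 of 53 higher and 4 lower. At 10 CPM 9 of 16 were higher and 0 lower. The median log2 ratio was 1.07, 0.77 and 1.44 in turn. The filter sets how many genes are counted, and shares of all genes are given at 10 CPM only. For the other changes the cause was not tested. Ifit1, Ifit3 and Irf7 lie near or below 10 CPM in most alveolar classes, and 1 library per age limits every comparison. No paired analysis was possible because each age has 1 library and no result comes from a test.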

Other observations

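Clusters outside the class sums held high levels of some of the genes. At P10 the 368 endothelial-like cells that carried alveolar RNA had Ifit1 at 97.5 CPM, Ifit3 at 109 CPM, Stat2 at 105 CPM and Ly6e at 1042 CPM, the highest levels of Ifit1, Ifit3 and Stat2 among the 26 clusters of that library. The 33 mesothelial-like cells at P10 had Ifitm3 at 1941 CPM and Isg15 at 90.9 CPM. At E18.5, 59 erythroid-like cells, which carried alveolar RNA, had Isg15 at 193 CPM from 95 UMIs, and at 157 CPM without the highest cell, whereas Ifit3 was at 6.08 CPM from 3 UMIs. The unnamed E18.5 cluster of 151 cells led by Plac8, S100a8 and Ly6c2 had Irf7 at 80.7 CPM and Ifitm3 at 1467 CPM. The highest Irf7 level at P10 was in a myeloid-like cluster of 155 cells, also led by Plac8 and carrying alveolar RNA, at 123 CPM with 1871 CPM of Ifitm3. The unnamed P10 cluster of 2042 cells, in which all 15 AT2 markers were raised, had Ly6e at 691 CPM and Ifit3 at 4.09 CPM.

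B2m, the light chain of MHC class I and itself interferon-inducible, was named after its values were seen. It was 1.83-fold higher in AT1-like than in AT2-like cells at E18.5, and 3.52-fold higher in AT2-like cells at P10 than at E18.5.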
